A study of Mus musculus with 9 samples.

Results

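The genes examined were 10 named components of the piRNA pathway, Piwil2, Mael, Mov10l1, Tdrd1, Tdrd12, Tdrkh, Asz1, Gtsf1, Tex19.1 and Ddx4. They were taken from the expression table by gene symbol, and all 10 were among its 24819 symbols. RNA came from E14 cells, a line of mouse embryonic stem cells, grown on gelatin-coated plates. The cells were kept in EPSCM, the expanded potential stem cell medium, in 2iLIF, which is N2B27 medium with the 2i inhibitor pair and leukemia inhibitory factor (LIF), or in ES, a medium of DMEM with fetal bovine serum and LIF. Each medium had 3 messenger RNA libraries, 9 in all. The labels give no genetic change for any of them, and they leave unsaid whether those of 1 medium are separate cultures. The p-values therefore set a difference between media only against the spread among these libraries, and that spread may be technical.

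PIWI-interacting RNAs (piRNAs) are small RNAs of the germline that PIWI proteins use as guides to silence transposons, by cutting their transcripts and by directing DNA methylation to their copies. Precursor transcripts are unwound and cut at the surface of mitochondria, trimmed, and amplified in cytoplasmic granules called nuage, where Tudor domain proteins hold the PIWI proteins by their methylated arginines. In the mouse, loss of most of these genes arrests spermatogenesis and releases LINE and long terminal repeat elements. Many of them have CpG-rich promoters that are methylated in somatic tissues, and pluripotent cells transcribe a part of the set.

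Levels below are FPKM, fragments scaled to transcript length in kilobases and to the mapped total, and a difference between media is that of their mean log2(FPKM + 1), given ± SE. This scale understates the change of low genes. A call, higher or lower, needed a Benjamini-Hochberg adjusted p below 0.05 from limma together with a difference of 1 or more on that scale, the fold limit. Genes were tested if they reached 1 FPKM in at least 3 libraries, which 12330 of all genes and 9 of the 10 members did; Tdrd1 did not. The steps between low values correspond to about 19900000 to 30600000 fragments per library, and 1 fragment on 1 kb of transcript then equals 0.0327 to 0.0503 FPKM. In each medium 1 library stood apart from the other 2 across all genes, EPSCM replicate 2, 2iLIF replicate 1 and ES replicate 1, on a principal component with 6.46% of the variance. These 3 carry the highest numbers in the sample titles, and no source used here says what the numbers stand for. The other 2 libraries of each medium are called the close libraries. They were picked for their closeness in these same data, so smaller SEs and p-values with them alone come in part from that choice. The stem cell markers Pou5f1, Nanog, Sox2, Zfp42, Esrrb and Tdgf1 summed to 1975 to 2092 FPKM in EPSCM, 2550 to 2841 in 2iLIF and 3144 to 3496 in ES. Only Pou5f1 and Zfp42 followed the order of this sum in their means. Nanog and Esrrb were highest in 2iLIF, at means of 432 and 291 FPKM. Sox2 and Tdgf1 were lowest there, at means of 181 and 286 FPKM, against 208 and 547 FPKM in EPSCM.

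RefSeq promoters (GRCm38.p6) were matched for 9 of the 10 members; Piwil2 was the exception. In the 250 bases before the start, an E-box with the letters CACGTG, the sequence that MAX and its partner MGA bind, lay in 4 of the 9, Mael, Mov10l1, Ddx4 and Tdrd1. Of all 32851 promoters of that length, 6.02% held it. The letters GCGGGA, on either strand, the core of many E2F sites, lay in Mael, Ddx4 and Tex19.1, against 16.9% of all promoters. Both motifs hold a CpG, and these shares were not matched for the CpG content of the promoters. For Tdrd1, with 3 listed starts, and Tdrd12, with 2, the most upstream start was used. A match describes letters and does not show that a factor was bound. The CpG ratio, observed over expected, was 1.00 for Ddx4, 0.921 for Tdrkh, 0.901 for Asz1, 0.750 for Mael and 0.748 for Mov10l1, against a median of 0.374 over all promoters. Tdrd12 had the lowest ratio of the 9, at 0.240, and Gtsf1 had 0.380. The 4 promoters with an E-box are shown for that motif. These 4 genes had their lowest level in 2iLIF, and so did Tdrkh, whose promoter holds no match, and Piwil2, which has no matched promoter. Tex19.1, with an E2F core, had its highest level in 2iLIF. Asz1, with neither motif and a CpG ratio of 0.901, had its lowest level in ES. A link between motifs and level was not tested. Gtsf1, far higher in EPSCM than in 2iLIF or ES, and Tdrd12, which had its highest level in 2iLIF, follow as promoters with neither motif. Each line runs 5′ to 3′ on the strand of the gene and ends at the base before the start, and capitals mark the E-box and the E2F core.
Mael, chr1:166238745-166238994, minus strand: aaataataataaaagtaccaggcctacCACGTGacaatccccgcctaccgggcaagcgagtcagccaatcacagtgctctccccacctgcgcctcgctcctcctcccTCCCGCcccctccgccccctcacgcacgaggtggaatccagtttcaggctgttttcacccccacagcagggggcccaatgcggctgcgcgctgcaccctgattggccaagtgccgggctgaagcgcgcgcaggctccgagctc
Mov10l1, chr15:88982744-88982993, plus strand: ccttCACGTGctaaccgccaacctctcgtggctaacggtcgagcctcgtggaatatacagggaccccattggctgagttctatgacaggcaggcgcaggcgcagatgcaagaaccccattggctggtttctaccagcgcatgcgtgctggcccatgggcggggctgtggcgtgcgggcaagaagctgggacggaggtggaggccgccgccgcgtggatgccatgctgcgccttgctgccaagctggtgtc
Ddx4, chr13:112652311-112652560, minus strand: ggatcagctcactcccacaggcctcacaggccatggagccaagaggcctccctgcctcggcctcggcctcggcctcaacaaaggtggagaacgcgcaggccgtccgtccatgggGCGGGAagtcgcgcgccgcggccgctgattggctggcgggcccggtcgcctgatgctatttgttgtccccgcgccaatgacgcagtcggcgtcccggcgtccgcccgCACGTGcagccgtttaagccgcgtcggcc
Tdrd1, chr19:56825959-56826208, plus strand: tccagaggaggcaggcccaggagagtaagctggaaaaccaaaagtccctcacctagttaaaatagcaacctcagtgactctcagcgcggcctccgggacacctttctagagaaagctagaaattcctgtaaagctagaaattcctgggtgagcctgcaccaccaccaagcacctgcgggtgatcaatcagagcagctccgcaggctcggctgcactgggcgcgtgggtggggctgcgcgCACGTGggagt
Gtsf1, chr15:103430428-103430677, minus strand: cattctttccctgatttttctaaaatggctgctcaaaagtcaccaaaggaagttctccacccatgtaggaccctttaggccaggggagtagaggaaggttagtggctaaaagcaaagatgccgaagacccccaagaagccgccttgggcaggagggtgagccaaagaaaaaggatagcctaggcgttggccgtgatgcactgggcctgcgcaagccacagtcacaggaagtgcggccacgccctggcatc
Tdrd12, chr7:35537745-35537994, minus strand: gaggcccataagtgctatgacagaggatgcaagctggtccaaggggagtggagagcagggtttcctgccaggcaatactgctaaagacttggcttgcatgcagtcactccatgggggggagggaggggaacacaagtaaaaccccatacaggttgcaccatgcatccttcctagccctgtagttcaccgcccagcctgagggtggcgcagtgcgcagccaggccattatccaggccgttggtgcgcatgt

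**Figure D1:**
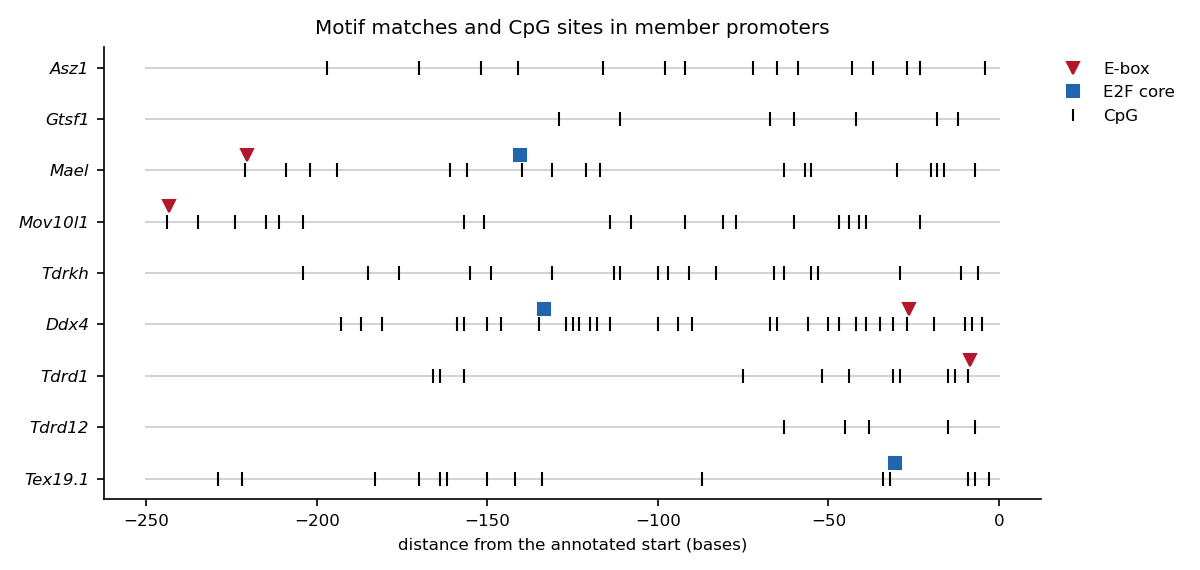
Position of E-box matches (triangles), E2F core matches (squares) and CpG sites (ticks) in the 250 bases before the annotated start of 9 members. The x axis gives the distance from the start in bases; Ddx4 had 31 CpG sites and Tdrd12 had 5.

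Across the 3 media the members followed 3 patterns. Gtsf1, Asz1, Mael and Mov10l1 were highest in EPSCM. Tdrkh, Ddx4, Piwil2 and Tdrd1 had levels in EPSCM and ES that overlapped or differed by less than the fold limit and were lowest in 2iLIF, while Tdrd12 and Tex19.1 had their highest level there. All 9 tested members differed somewhere among the media by limma's F statistic (adjusted p of 1.97e-08 to 4.95e-04), as did 85.5% of all tested genes. In bulk RNA, fewer cells that express a gene and less RNA per cell cannot be told apart.

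**Figure D2:**
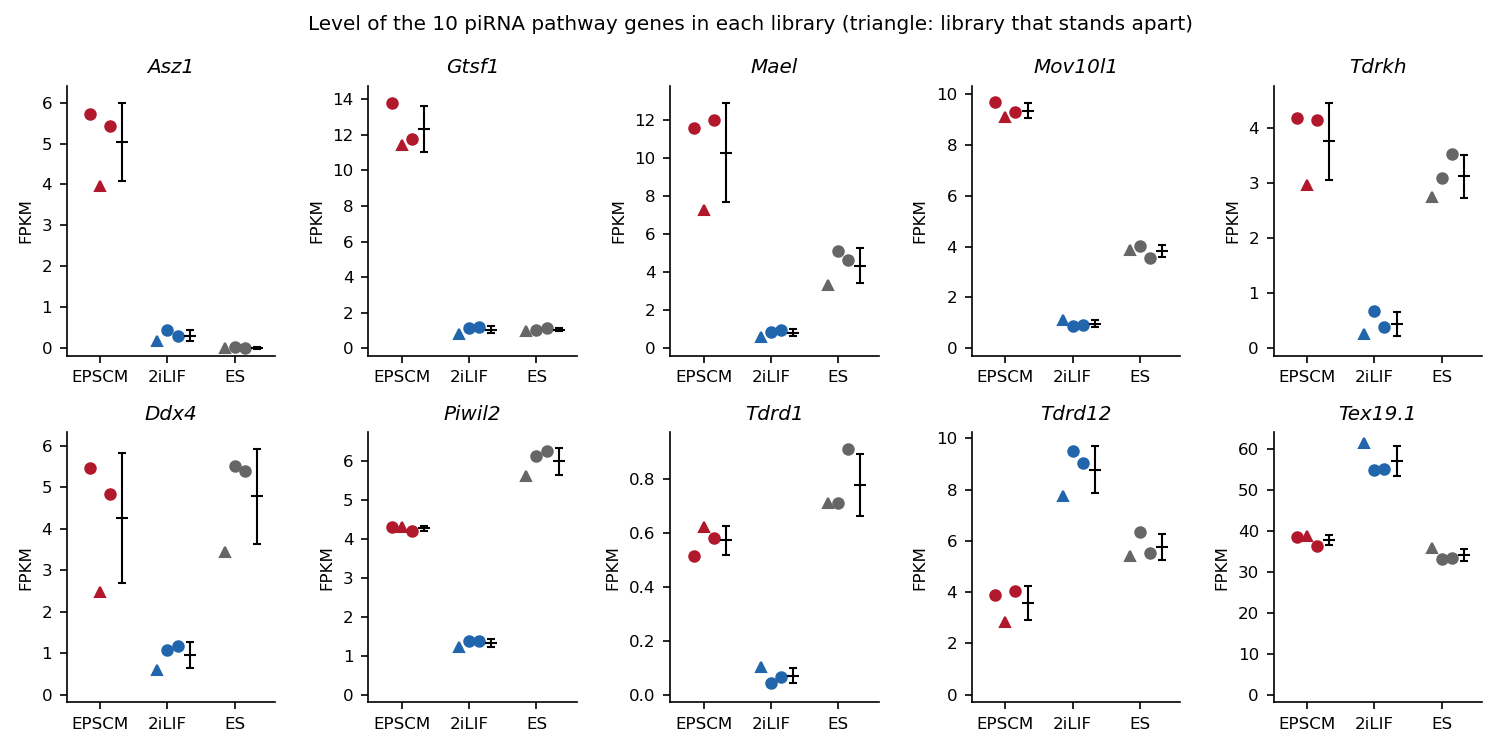
FPKM of each member in the 9 libraries, by medium. Points are libraries, triangles the library of each medium that stands apart, and bars the mean ± SD (n = 3); Tdrd12 and Tex19.1 peak in 2iLIF, at means of 8.77 and 57.1 FPKM, and Gtsf1 in EPSCM, at 12.3 FPKM.

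Gtsf1 encodes a small zinc finger protein that assists PIWI proteins in cutting their targets. It stood at 13.8, 11.4 and 11.8 FPKM in the EPSCM libraries, at 0.804, 1.11 and 1.17 FPKM in the 2iLIF libraries and at 0.968, 1.02 and 1.15 FPKM in the ES libraries. Every EPSCM library was above the other 6, and the 2iLIF and ES libraries overlapped. Its mean was 11.8 times as high in EPSCM as in ES (2.70 ± 0.09, adjusted p = 4.59e-08) and 11.96 times as high in EPSCM as in 2iLIF (2.72 ± 0.09, adjusted p = 3.57e-08). 2iLIF against ES gave -0.01 ± 0.09 (adjusted p = 0.898).

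Asz1, also known as GASZ, is a scaffold on the outer mitochondrial membrane that organises nuage next to mitochondria. It was at 5.72, 3.96 and 5.43 FPKM in EPSCM and at 0.167, 0.443 and 0.303 FPKM in 2iLIF. In ES it was listed at 0 in replicates 1 and 3 and at 0.0316 FPKM in replicate 2, a value that rests on about 2.27 fragments of its longest transcript. No media overlapped. EPSCM exceeded ES by 2.57 ± 0.12 (adjusted p = 1.67e-07). It exceeded 2iLIF by 2.20 ± 0.12 (adjusted p = 4.06e-07), with a mean 16.6 times as high. The low level in 2iLIF was still above that in ES by 0.36 ± 0.12 (adjusted p = 0.0235), short of the fold limit. With a pseudocount of 0.1 in place of 1 this last difference came to 1.82 and was called, and EPSCM against ES came to 5.53. On that scale Asz1 exceeded Gtsf1, which gave 3.44 for EPSCM against ES, so the order of these 2 genes depends on the scale. The adjusted p of 2iLIF against ES was 0.0544 to 0.0858 when 2iLIF replicate 2 or 3 or ES replicate 1 or 3 was left out.

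Mael and Mov10l1 were highest in EPSCM, intermediate in ES and lowest in 2iLIF. Mael, or Maelstrom, acts in nuage and in the silencing of transposons in fetal male germ cells. It was at 11.6, 7.28 and 12.001 FPKM in EPSCM, 0.611, 0.873 and 0.954 in 2iLIF, and 3.30, 5.11 and 4.64 in ES. The media did not overlap, and the library that stands apart was the lowest of its medium each time. The mean was 12.7 times as high in EPSCM as in 2iLIF (2.62 ± 0.19, adjusted p = 2.87e-06) and 2.37 times as high in EPSCM as in ES (1.06 ± 0.19, adjusted p = 8.31e-04). The rise over ES was close to the fold limit and lost its call without EPSCM replicate 1 (0.97), EPSCM replicate 3 (0.95) or ES replicate 1 (0.92), and also after quantile normalization (0.90) or median ratio scaling (0.98). With the close libraries alone it was 1.13 ± 0.06.

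Mov10l1 is the RNA helicase that unwinds piRNA precursors for cutting, and its relative Mov10 works outside the germline. Mov10l1 was at 9.68, 9.09 and 9.30 FPKM in EPSCM, 1.12, 0.884 and 0.900 in 2iLIF, and 3.86, 4.04 and 3.56 in ES. The 3 media formed 3 tight and separate steps. EPSCM was above 2iLIF by 2.40 ± 0.07 (adjusted p = 1.44e-08) and above ES by 1.10 ± 0.07 (adjusted p = 8.86e-07), while 2iLIF was below ES by a difference of -1.29 ± 0.07 (adjusted p = 4.19e-07). Quantile normalization (0.93) and subtraction of the chromosome median (0.997) each moved the rise over ES under the fold limit.

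Tdrkh, Ddx4, Piwil2 and Tdrd1 had levels in EPSCM near or below those in ES, and far lower levels in 2iLIF. Tdrkh is a Tudor and KH domain protein of the mitochondrial surface that recruits PIWI proteins for trimming of their piRNAs. It was at 4.19, 2.96 and 4.14 FPKM in EPSCM, 0.263, 0.683 and 0.381 in 2iLIF, and 2.75, 3.09 and 3.54 in ES. EPSCM and ES overlapped, and both lay above every 2iLIF library. EPSCM against 2iLIF gave 1.72 ± 0.14 (adjusted p = 5.54e-06) and 2iLIF against ES gave -1.52 ± 0.14 (adjusted p = 1.36e-05), whereas EPSCM against ES gave 0.20 ± 0.14 (adjusted p = 0.220), a p that was 0.0465 with the close libraries alone. Tdrkh overlaps the coding gene Oaz3 on the other strand in the GENCODE annotation, and no source used here says whether strand was used in counting, so its value is uncertain.

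Ddx4, the mouse Vasa homolog, is an RNA helicase of nuage and a classical marker of germ cells. It was at 5.47, 2.48 and 4.83 FPKM in EPSCM, 0.599, 1.08 and 1.17 in 2iLIF, and 3.45, 5.50 and 5.38 in ES. EPSCM and ES overlapped over most of their range, and the library that stands apart had the lowest value in each medium. The difference was 1.39 ± 0.25 for EPSCM against 2iLIF (adjusted p = 8.67e-04) and -1.56 ± 0.25 for 2iLIF against ES (adjusted p = 4.55e-04). EPSCM against ES gave -0.16 ± 0.25 (adjusted p = 0.568), and without EPSCM replicate 2 the sign turned to 0.11. The close libraries alone gave 1.53 ± 0.07, -1.60 ± 0.07 and -0.07 ± 0.07 for these 3 comparisons, with the same calls.

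Piwil2, known as MILI, is the PIWI protein that cuts transposon transcripts and takes part in piRNA amplification. It was at 4.31, 4.30 and 4.20 FPKM in EPSCM, 1.22, 1.37 and 1.39 in 2iLIF, and 5.59, 6.11 and 6.26 in ES. The media did not overlap, and every ES library was above every EPSCM library. EPSCM was above 2iLIF by 1.18 ± 0.06 (adjusted p = 2.88e-07), and 2iLIF was below ES by a difference of -1.59 ± 0.06 (adjusted p = 5.28e-08). EPSCM against ES gave -0.41 ± 0.06 (adjusted p = 2.42e-04), short of the fold limit. After quantile normalization the difference from 2iLIF was 0.97 and was not called.

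Tdrd1, a scaffold with several Tudor domains that binds Piwil2, stayed under 1 FPKM in all 9 libraries. It was at 0.515, 0.622 and 0.582 FPKM in EPSCM, 0.102, 0.0443 and 0.0664 in 2iLIF, and 0.712, 0.710 and 0.910 in ES. Its order of media was that of Piwil2, with no overlap, but the 2iLIF values rest on about 5.21 to 10.5 fragments of its longest transcript. In a fit without the filter EPSCM against 2iLIF gave 0.55 ± 0.05 (adjusted p = 2.86e-05), 2iLIF against ES gave -0.73 ± 0.05 (adjusted p = 6.54e-06) and EPSCM against ES gave -0.17 ± 0.05 (adjusted p = 0.0162), none of them past the fold limit.

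Tdrd12 and Tex19.1 ran the other way, with the highest level in 2iLIF. Tdrd12 combines Tudor domains with a helicase domain and is needed for the amplification of piRNAs in the mouse testis. It was at 3.88, 2.83 and 4.05 FPKM in EPSCM, 7.75, 9.52 and 9.04 in 2iLIF, and 5.40, 6.36 and 5.54 in ES. The media did not overlap and EPSCM was the lowest. Tdrd12 fell in EPSCM against 2iLIF by 1.10 on the log2 scale (SE 0.12, adjusted p = 3.88e-05), a call that was lost without EPSCM replicate 2 (-0.97) and kept with the close libraries alone (-1.05). The other differences were short of the fold limit, with EPSCM against ES at -0.57 ± 0.12 (adjusted p = 0.00217) and 2iLIF against ES at 0.53 ± 0.12 (adjusted p = 0.00375).

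Tex19.1 is a mammalian protein of germ cells, placenta and pluripotent cells that limits retrotransposons. It had the highest level of the 10 members in every library, at 38.5, 38.7 and 36.4 FPKM in EPSCM, 61.4, 54.8 and 55.0 in 2iLIF, and 35.8, 33.3 and 33.5 in ES. The 2iLIF libraries lay above the rest, and the EPSCM libraries were narrowly above those of ES. EPSCM against 2iLIF gave -0.58 ± 0.06 (adjusted p = 3.38e-05) and 2iLIF against ES gave 0.72 ± 0.06 (adjusted p = 8.64e-06), both under the fold limit, and EPSCM against ES gave 0.14 ± 0.06 (adjusted p = 0.0620). With the close libraries alone this last difference was 0.16 ± 0.03 (adjusted p = 0.0035), still far under the fold limit. Summed over the 9 members other than Tex19.1, which FPKM allows because it is per length, the level was 44.9 to 59.2 FPKM in EPSCM, 12.6 to 16.01 in 2iLIF and 26.0 to 32.0 in ES. Over all 10 members the sum was 83.7 to 97.7 FPKM in EPSCM, 70.4 to 74.0 in 2iLIF and 61.9 to 65.2 in ES. The order of 2iLIF and ES in the sum thus depends on Tex19.1.

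Counted by comparison, EPSCM against ES had 4 members higher and 0 lower among 9 tested, Asz1, Gtsf1, Mael and Mov10l1. Over all tested genes 19.7% were called, 11.7% were higher and 7.97% lower in that comparison, and the median difference was 0.20 for the members and 0.09 for all tested genes. EPSCM against 2iLIF had 7 higher and 1 lower, with only Tex19.1 not called. The share over all tested genes was 16.1%, with 10.1% higher and 5.91% lower, and the medians were 1.72 and 0.03. For 2iLIF against ES, 0 members were higher and 5 lower, Ddx4, Mael, Mov10l1, Piwil2 and Tdrkh, where 14.7% of all tested genes were called, 7.62% higher and 7.12% lower, and the medians were -1.29 and 0.03. At an unadjusted limma p under 0.05, with no fold limit, 3 members were higher in 2iLIF than in ES, Asz1, Tdrd12 and Tex19.1, and 2 were lower in EPSCM than in ES, Piwil2 and Tdrd12. By the same rule 36.3% of all tested genes were higher in 2iLIF than in ES and 32.4% were lower in EPSCM than in ES. The 3 comparisons share libraries, so their counts are not independent of each other. On this scale a medium with all values under 1 FPKM cannot be called the higher one. Asz1 was under 1 FPKM in every 2iLIF and ES library and passed the filter through EPSCM alone. A rise in EPSCM was its only possible call, and it is counted in the 4 and the 7 higher. Mael and Tdrkh were under 1 FPKM in every 2iLIF library, so neither could be called higher there. With the close libraries alone the same members were called in every comparison.

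**Figure D3:**
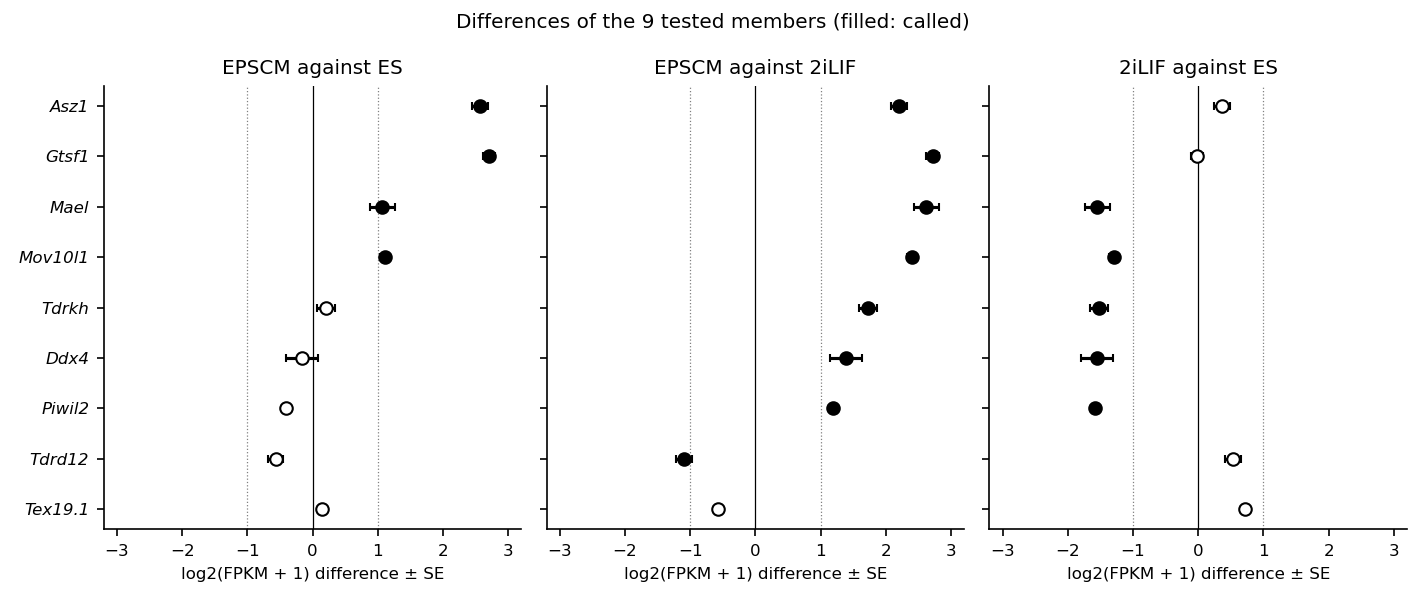
Log2(FPKM + 1) difference ± SE of the 9 tested members in each comparison, the first medium minus the second. Filled points were called and dotted lines mark the fold limit of 1; the filled points number 4, 8 and 5 from left to right.

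The libraries that stand apart differed from the close ones more for some members than for others. In 5 of the 9 tested members, Mael, Tdrd12, Tdrkh, Gtsf1 and Ddx4, that library lay below both close libraries in all 3 media, as it did for 25.3% of all tested genes. Ddx4 was at 0.482 of the mean of the close libraries in EPSCM, 0.532 in 2iLIF and 0.634 in ES. Tex19.1 was above both close libraries in each medium, at ratios of 1.03 in EPSCM, 1.12 in 2iLIF and 1.07 in ES. Each medium holds 1 such library.

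The genes next to each member on its chromosome were set beside it, the 10 tested genes on each side by RefSeq order, or 13 in all for Gtsf1 near a chromosome end. For Piwil2, on chromosome 14, the neighbours' medians were also below 0 in both comparisons with ES. Their median was -0.90 for 2iLIF against ES, beside -1.59 for Piwil2, with 8 of 20 neighbours called lower and 0 higher, and Piwil2 less the neighbours' median came to -0.69. For EPSCM against ES the neighbours' median was -0.77, beside -0.41 for Piwil2. The part of this run of genes in the values of Piwil2 was not tested. For EPSCM against 2iLIF the neighbours' median was 0.25, beside 1.18.

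For the other called members the neighbours' medians lay between -0.18 and 0.48 in the comparisons with a call. Mael lies on chromosome 1, whose median difference for EPSCM against ES was -0.29, and its own neighbours had a median of 0.15, beside 1.06 for Mael. Asz1, on chromosome 6, and Gtsf1, on chromosome 15, exceeded every neighbour in EPSCM against both other media. The neighbours of Gtsf1 had 5 of 13 genes called higher in EPSCM against ES, with a median of 0.48, and 2 of 13 in EPSCM against 2iLIF, with a median of 0.06. For Ddx4, on chromosome 13, the neighbours' median in 2iLIF against ES was 0.41, opposite in sign to its own -1.56.

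**Figure D4:**
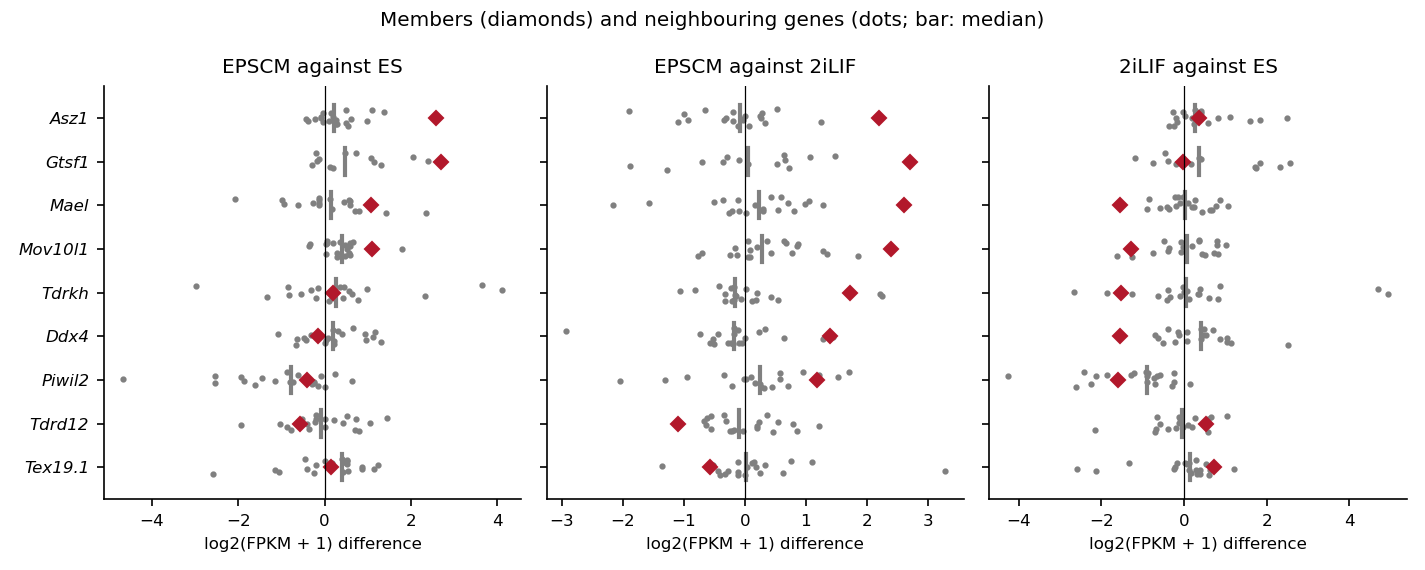
Log2(FPKM + 1) difference of each tested member (diamond) and of the neighbouring tested genes on its chromosome (dots, with the median as a bar), the first medium minus the second. The neighbours of Piwil2 lie mostly left of 0 in both comparisons with ES, at medians of -0.77 and -0.90.

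A second list held 23 other genes of the pathway, of which 22 were in the table and 15 were tested. In EPSCM against ES 4 were higher and 1 lower, in EPSCM against 2iLIF 3 higher and 1 lower, and in 2iLIF against ES 2 higher and 1 lower. Over all tested genes the shares called higher and lower were 11.7% and 7.97%, 10.1% and 5.91%, and 7.62% and 7.12%, in this order. The medians of the list were 0.33, 0.70 and -0.06. Fkbp6 and Gpat2 were higher than in ES in both EPSCM and 2iLIF. Fkbp6 is an immunophilin that works with HSP90 in loading PIWI proteins, and Gpat2 an acyltransferase of the mitochondrial surface that binds Piwil2. None of the 9 tested members was called higher in 2iLIF than in ES. For Asz1, Mael and Tdrkh, under 1 FPKM in every 2iLIF library, that call was not possible on this scale. Asz1, Tdrd12 and Tex19.1 were higher in 2iLIF than in ES by 0.36, 0.53 and 0.72, short of the fold limit. Fkbp6 averaged 28.8 ± 1.41 FPKM in EPSCM, 20.6 ± 1.39 in 2iLIF and 3.84 ± 0.294 in ES (SD, n = 3 each), and Gpat2 averaged 30.2 ± 3.49, 26.6 ± 2.72 and 4.82 ± 0.745 FPKM in the same media. Both were called higher in EPSCM than in ES (2.62 ± 0.07, adjusted p = 1.31e-08, and 2.42 ± 0.12, adjusted p = 2.10e-07) and in 2iLIF than in ES (2.16 ± 0.07, adjusted p = 2.65e-08, and 2.25 ± 0.12, adjusted p = 3.70e-07).

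Rnf17 and Tex19.2, a Tudor domain protein of germ cell granules and the paralog of Tex19.1, were higher in EPSCM than in ES, by 1.29 ± 0.27 (adjusted p = 0.00224) and 1.24 ± 0.12 (adjusted p = 1.21e-05). Tex19.2 was also higher in EPSCM than in 2iLIF, at 3.05 ± 0.436 against 0.882 ± 0.216 FPKM (1.11 ± 0.12, adjusted p = 3.01e-05), where Tex19.1 gave -0.58. Reads shared by these paralogs could have been split between them in counting. Tex19.2 passed the filter only through its EPSCM libraries, as outside EPSCM only 2iLIF replicate 2, at 1.13 FPKM, reached 1 FPKM. Every ES library was under 1 FPKM for Tex19.2, so ES could not be called the higher medium. Tdrd7, a Tudor domain protein of nuage, and Btbd18, a transcription factor of pachytene piRNA precursors, made up the rest of the rises over 2iLIF, at 1.16 ± 0.05 (adjusted p = 7.12e-08) and 1.01 ± 0.05 (adjusted p = 3.97e-07). Tdrd7 passed the filter through EPSCM alone, so a rise in EPSCM was the only call open to it. Btbd18 was under 1 FPKM in every 2iLIF library, so 2iLIF could not be called the higher medium. After quantile normalization 0 genes of the list were called higher in EPSCM than in 2iLIF, and with the close libraries alone 1 was.

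Gtsf1l, a relative of Gtsf1, had its lowest level in EPSCM. It averaged 12.4 ± 1.94 FPKM in EPSCM, 29.5 ± 2.85 in 2iLIF and 47.5 ± 3.56 in ES, and was lower in EPSCM than in ES (-1.86 ± 0.11, adjusted p = 7.17e-07) and than in 2iLIF (-1.19 ± 0.11, adjusted p = 1.45e-05). Piwil4, or MIWI2, the nuclear PIWI protein that directs DNA methylation, had the same order of media as Piwil2. It averaged 0.886 ± 0.0600 FPKM in EPSCM, 0.117 ± 0.0229 in 2iLIF and 1.74 ± 0.152 in ES, and was lower in 2iLIF than in ES (-1.29 ± 0.06, adjusted p = 1.24e-07). Piwil4 passed the filter through ES alone, with every EPSCM and 2iLIF library under 1 FPKM. Only ES could therefore be called the higher medium. Piwil1, or MIWI, named after its values were seen, was not tested and averaged 0.777 ± 0.121, 0.750 ± 0.110 and 0.780 ± 0.0397 FPKM in EPSCM, 2iLIF and ES. The most abundant genes of the list without a call were Morc1, a repressor of transposons, at 20.04 ± 3.44, 30.9 ± 5.24 and 18.8 ± 3.24 FPKM, and the piRNA trimmer Pnldc1, at 8.97 ± 0.435, 9.47 ± 0.375 and 13.7 ± 1.30 FPKM, in the same order of media.

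**Figure D5:**
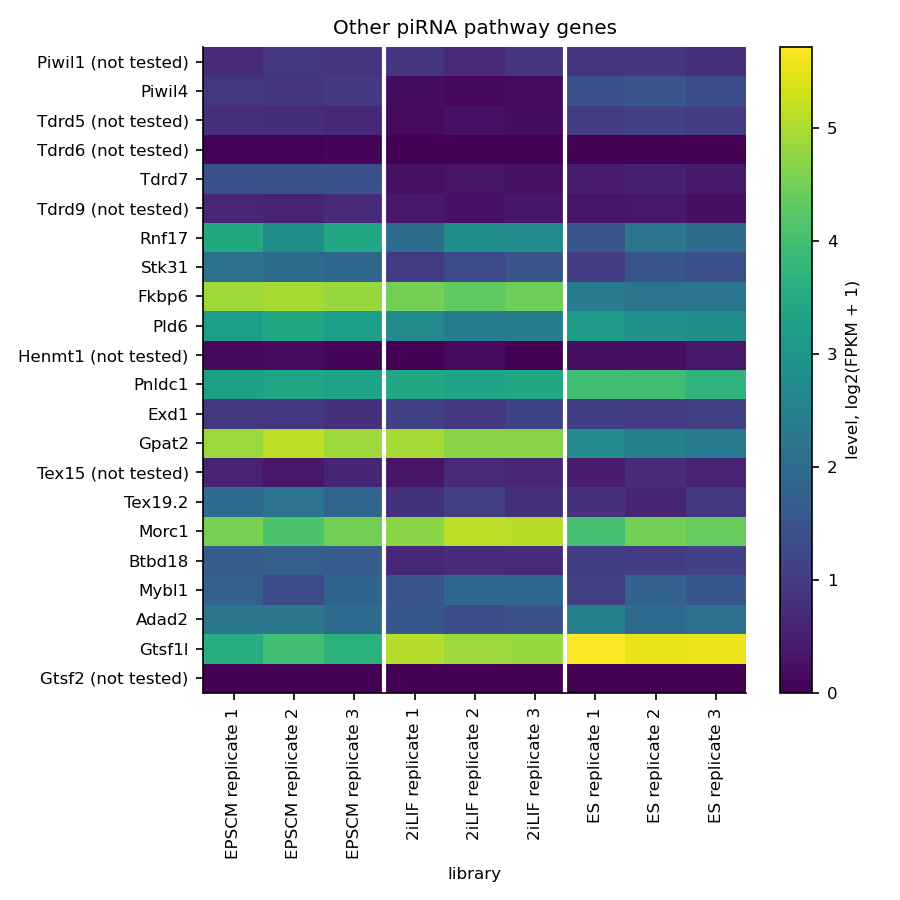
Level of the 22 other piRNA pathway genes in the table as log2(FPKM + 1), by library, with EPSCM at the left, 2iLIF in the middle and ES at the right. Fkbp6 and Gpat2 are bright in EPSCM and 2iLIF, and Gtsf1l is brightest in ES, at a mean of 47.5 FPKM.

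Another list held 15 factors with roles both inside and outside the pathway. Of 14 tested, 1 was higher and 2 lower in EPSCM against ES, 0 were called in EPSCM against 2iLIF, and 1 was higher and 0 lower in 2iLIF against ES. Over all tested genes the shares called higher and lower were 11.7% and 7.97%, 10.1% and 5.91%, and 7.62% and 7.12%, in this order. At an unadjusted p under 0.05, with no fold limit, 11 of the 14 differed between EPSCM and 2iLIF, 3 higher and 8 lower, as did 70.4% of all tested genes. In 2iLIF against ES 6 were higher and 7 lower by that rule, beside 36.3% higher and 33.6% lower over all tested genes. Ago2, the cutting Argonaute of the miRNA and siRNA pathways, averaged 39.4 ± 1.86 FPKM in EPSCM, 40.4 ± 1.35 in 2iLIF and 18.03 ± 0.227 in ES, and was higher in EPSCM (1.09 ± 0.05, adjusted p = 2.19e-07) and in 2iLIF (1.12 ± 0.05, adjusted p = 1.97e-07) than in ES. Its call in EPSCM was lost with median ratio scaling and with subtraction of the chromosome median. Clns1a, a subunit of the PRMT5 methylosome, and Tdrd3, a Tudor protein of the nucleus and cytoplasm, fell in EPSCM against ES by 1.17 (SE 0.07, adjusted p = 5.06e-07) and by 1.43 (SE 0.10, adjusted p = 1.55e-06) on the log2 scale. The chaperones Hsp90ab1 and Hsp90aa1, at means of 2484 and 927 FPKM in EPSCM, were not called.

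Germ cell genes were set beside the members because nuage genes are read as germ cell markers. Of 15, 8 were tested, and in EPSCM against ES 4 were higher and 0 lower, Dazl, Dppa3, Hormad1 and Sohlh2, while at an unadjusted p under 0.05 with no fold limit 2 were lower, beside 32.4% of all tested genes. In EPSCM against 2iLIF 4 were higher, Dazl, Dnd1, Dppa3 and Sohlh2, and 1 lower, Nanos3, and in 2iLIF against ES 2 were higher, Dazl and Nanos3, and 1 lower, Dnd1. Dazl, which binds messenger RNAs in germ cells, averaged 34.3 ± 7.88 FPKM in EPSCM, 7.28 ± 1.19 in 2iLIF and 1.87 ± 0.294 in ES, and its difference for EPSCM against ES was 3.60 ± 0.18 (adjusted p = 2.31e-07). Dppa3, a maternal factor and early germ cell marker also called Stella, averaged 27.9 ± 4.15, 3.71 ± 0.402 and 2.51 ± 0.0342 FPKM in the same order, with EPSCM above ES by 3.03 ± 0.11 (adjusted p = 4.99e-08). Hormad1, a protein of the meiotic chromosome axis, averaged 3.09 ± 0.495, 1.14 ± 0.506 and 0.715 ± 0.102 FPKM. It passed the filter only through its EPSCM libraries, as outside EPSCM only 2iLIF replicate 2, at 1.72 FPKM, reached 1 FPKM. Every ES library was under 1 FPKM for Hormad1, so ES could not be called the higher medium. Sohlh2, a transcription factor of early germ cell differentiation, averaged 99.7 ± 5.08 FPKM in EPSCM, 14.7 ± 1.57 in 2iLIF and 26.6 ± 0.925 in ES, the order of media seen for Mael and Mov10l1. Dnd1, an RNA-binding protein that primordial germ cells need, averaged 12.2 ± 1.55 FPKM in EPSCM, 4.83 ± 0.518 in 2iLIF and 15.2 ± 2.33 in ES. Like Ddx4 and Piwil2 it was lowest in 2iLIF, while its EPSCM and ES libraries overlapped (limma adjusted p = 0.0555). Nanos3, another RNA-binding protein of primordial germ cells, averaged 1.12 ± 0.150, 6.48 ± 0.315 and 2.39 ± 0.324 FPKM, the order seen for Tdrd12. Sycp3 and Prdm1 were not called in any comparison.

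The 7 genes taken as markers of spermatogenic cells are the 7 of the 15 germ cell genes that did not pass the filter. Their low level leaves out the 8 tested ones, such as Hormad1 and Sycp3, at means of 3.09 and 4.95 FPKM in EPSCM. Of the 7 markers, 6 stayed under 1 FPKM in all 9 libraries, and Tnp1 was at 0 throughout. The exception, Sycp1, was at 0.884 to 1.54 FPKM in EPSCM, 0.575 to 0.904 in 2iLIF and 0.330 to 0.413 in ES. The sum of the 7 was 1.17 to 1.81 FPKM in EPSCM, 1.50 to 1.79 in 2iLIF and 0.472 to 0.556 in ES. Markers of other lineages also differed between the media. Primitive endoderm markers summed to 7.84 to 8.36 FPKM in EPSCM, 2.29 to 2.66 in 2iLIF and 4.58 to 5.15 in ES, with 3 of 5 tested. Sox7 made up most of the ES sum, at a mean of 0.0315 FPKM in EPSCM, 0.0422 in 2iLIF and 2.79 in ES, while Gata4 and Gata6 led in EPSCM at 3.22 and 3.17 FPKM. Mesoderm markers summed to 4.64 to 6.08, 15.6 to 17.4 and 1.92 to 2.09 FPKM, with 2 of 4 tested, most of the 2iLIF sum being T at a mean of 12.7 FPKM. Trophoblast markers, with 2 of 5 tested, summed to 36.4 to 43.6, 23.6 to 26.6 and 17.7 to 20.1 FPKM, most of it Tfap2c. Neural markers, with 2 of 3 tested, summed to 10.1 to 11.2, 2.81 to 3.07 and 4.92 to 5.18 FPKM, and fibroblast markers, with 1 of 4 tested, to 5.67 to 7.26, 0.602 to 0.700 and 13.9 to 16.1 FPKM, in the order EPSCM, 2iLIF and ES. Nes made up most of the neural sum in EPSCM, at a mean of 8.30 FPKM, and Thy1 most of the fibroblast sum, at 6.02 FPKM in EPSCM, 0.410 in 2iLIF and 14.4 in ES. Their part in the levels of the members was not tested.

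The tested genes with the most similar profile were sought for the 3 members with the largest F statistic. Predicted, unnamed and small RNA genes were left out. The distance was the root mean square difference of log2(FPKM + 1) over the 9 libraries, after each gene was centred on its own mean. For Mov10l1 the nearest genes were Raver2, Got1l1 and Mxra7, each at a distance of 0.10. For Gtsf1 they were Megf11, Thrsp and Slc25a31, at 0.15, 0.16 and 0.16. Slc25a31, an ADP/ATP carrier of the testis, averaged 12.02 ± 0.896 FPKM in EPSCM, 0.606 ± 0.146 in 2iLIF and 0.738 ± 0.0706 in ES. For Piwil2 they were Pecr, Mapk11 and H1fx, at 0.09, 0.09 and 0.10.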

How the data were processed

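RNA was measured with stranded mRNA libraries, per the labels' protocols. The authors deposited 1 table of FPKM values for 24819 gene symbols, made with STAR and Cuffnorm on mm9, per the submitters' processing notes. No source used here gives their versions, the annotation or whether strand was used. Raw counts were not used, and the depths in the report are rough estimates from the spacing of low values.

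The FPKM values were taken as log2(FPKM + 1) and fitted with limma 3.58.1 in R 4.3.3, with 1 mean per medium over all 9 libraries and a mean-dependent prior. Tested genes reached 1 FPKM in 3 or more libraries, and p-values were adjusted by Benjamini-Hochberg over all 12330. Levels are means ± SD and differences ± SE. Alternatives changed the pseudocount, filter, scaling, prior and libraries.

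The members, the other lists and the motifs were chosen with earlier results of these data known. All 10 members are named. From each other list every called gene and at most 2 uncalled genes with the highest means are named, and for 3 members the 3 genes nearest in profile. Predicted, unnamed and small RNA genes were left out of the search by profile. Promoter sequences and gene order come from RefSeq (GRCm38.p6), where 24734 of the symbols matched, and overlaps from GENCODE; no coordinates were taken across builds.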

Additional observations from a re-analysis of the deposited data

How the results depend on the processing

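No paired analysis was possible because the media share no replicate numbers in the labels; the replicate numbers used here follow accession order and pair nothing. A covariate for the libraries that stand apart left every call of the members as it was. For the 9 tested members, 27 differences under 21 alternatives gave 561 values, of which 543 kept their direction and call status, 9 lost a call and 1 gained one. The adjusted p alone crossed 0.05 in 14 values with no change of call, 7 for Tex19.1 and 3 for Tdrkh in EPSCM against ES, and 4 for Asz1 in 2iLIF against ES. Of the 561 values 8 turned their sign, all of them differences that were not called. These were Tdrkh for EPSCM against ES after quantile normalization (-0.027), Ddx4 for EPSCM against ES without EPSCM replicate 2, and Gtsf1 for 2iLIF against ES after quantile normalization (0.074), scaling to the same sum (0.014), the close libraries only (0.041) and subtraction of the chromosome median (0.0195). Over the left-out replicates that difference of Gtsf1 ranged from -0.066 to 0.068, with the sign turned without 2iLIF replicate 1 or ES replicate 3, and that of Ddx4 from -0.34 to 0.11. The members higher in EPSCM than in ES numbered 2 after quantile normalization, against 4. The members lower in EPSCM than in 2iLIF numbered 0 to 1 over the left-out replicates, with 0 without EPSCM replicate 2. With a pseudocount of 0.1, 1 member, Asz1, was higher in 2iLIF than in ES. With a minimum of 5 FPKM, Asz1 and Tdrkh were not tested.

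The counts of the other lists were recomputed under alternatives chosen after seeing the data. The other piRNA pathway genes higher in EPSCM than in 2iLIF numbered 5 with a pseudocount of 0.1, 0 with the minimum of 5 FPKM, 0 after quantile normalization and 1 with the close libraries only, against 3, and those lower in 2iLIF than in ES 2 with the pseudocount and 0 with the minimum, against 1. Shared cofactors higher in EPSCM than in ES numbered 2 with the pseudocount, 0 with median ratio scaling and 0 with subtraction of the chromosome median, against 1. With the pseudocount, 1 was lower in EPSCM than in 2iLIF, against 0, 2 were higher in 2iLIF than in ES, against 1, and 1 germ cell marker was lower in EPSCM than in ES, against 0. Apart from the left-out libraries and the minimum, which change what enters the fit, the cause of these moves was not tested. Depth limits Asz1 in ES and 2iLIF and Tdrd1 in 2iLIF, which rest on few fragments.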
